A study of Mus musculus with 12 samples.

Results

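The exon junction complex is the protein mark that splicing leaves on messenger RNA just upstream of each exon-exon junction. Its core is formed by EIF4A3, an RNA helicase that clamps the RNA, by the heterodimer of MAGOH and RBM8A, which locks the clamp, and by CASC3, which joins in the cytoplasm. RNPS1, ACIN1, PNN and SAP18 bind the core at its rim and form the ASAP and PSAP assemblies, which act in splicing. Ribosomes strip the complex off an open reading frame, and a complex that remains downstream of a stop codon recruits UPF3B, UPF2 and UPF1 and marks the transcript for nonsense-mediated mRNA decay (NMD). UPF3B is an NMD factor that binds the complex and links it to UPF2. The genes described here are the 9 that encode these proteins, Magoh, its paralog Magohb, Rbm8a, Eif4a3, Casc3, Rnps1, Pnn, Acin1 and Sap18, out of 31114 genes that the transcripts could be joined to. They were chosen by name, with earlier results of these data known. All 9 were found and passed the level filter among 8846 genes tested.

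RNA was sequenced from livers of 12 hFIX-R29X mice, a model of hemophilia B that lacks mouse F9 and carries, under the human transthyretin promoter, a minigene of human factor IX whose coding sequence is broken by the R29X stop codon. The animals formed 3 groups of 4, with 2 females (replicates 1 and 2) and 2 males (replicates 3 and 4) in each. Mice of 8 to 14 weeks received 6 doses at intervals of 5 days of the vehicle DPBS (spelled DBPS in the labels), of a scrambled Control-ASO at 15 mg/kg or of an Upf3b-ASO at 10 mg/kg, and livers were taken 48 h after the final dose. Both antisense oligonucleotides (ASOs) carried GalNAc, a ligand of the asialoglycoprotein receptor of hepatocytes, and no group without the minigene was analysed here. The 2 ASOs differed in dose, so that sequence and dose cannot be told apart.

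The oligonucleotides are shown because the comparison rests on what they can pair with. The sequences are those of the unconjugated parents, from 5′ to 3′, with no part marked.
Upf3b-ASO: ggatatagatgtaacg
Control-ASO: ggccaatacgccgtca
The Upf3b-ASO paired over its full length of 16 bases with 1 transcript, Upf3b-201, at the site cgttacatctatatcc in the 3′ UTR (GRCm38, chrX:37091973-37091988, minus strand). The Control-ASO had no full site in any transcript searched. The search covered spliced sequences from GENCODE M21 of transcripts that the files also hold, and introns were not searched. Of the 61 transcripts of the 9 genes, 56 have the same length in M21 as in the files. The closest sites in the 9 genes had at least 5 mismatches to either oligonucleotide, and 36.7% of all genes had a site with at most 5 mismatches to the Upf3b-ASO.

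Depth was 13277892 to 17054313 estimated counts in Upf3b-ASO livers and 17642996 to 20387682 in the other 8, so that depth moved with the treatment, and its part in the results was not tested. Hepatocyte markers dominated in every liver, with a summed level of 43092 to 93631 CPM (counts scaled to a common library total) over Alb, Apoa1, Ttr, Asgr1, Cps1 and Tat. Markers of Kupffer cells (227 to 623 CPM), sinusoidal endothelium (233 to 382 CPM), stellate cells (221 to 505 CPM), erythroid cells (211 to 2992 CPM) and lymphocytes (17.9 to 37.3 CPM) were measured in all livers. Only 3 of 5 stellate, 1 of 5 lymphocyte and 0 of 4 cholangiocyte markers passed the level filter, so the last list could give no call. In the fit of all 12 livers no tested marker was called changed by the Upf3b-ASO against either reference group. The treated males had the lowest summed hepatocyte markers of all livers, at 48420 and 43092 CPM, beside at least 55564 CPM elsewhere. They were also lowest for stellate markers, at 221 CPM each, beside at least 321 CPM elsewhere. Treated females lay within the range of the reference groups on both lists. A pair of livers stood apart, both in the Control-ASO group. The female of replicate 1 had the highest summed level for 6 of 7 marker lists, among them erythroid cells (2992 CPM, at most 548 CPM elsewhere) and Kupffer cells (623 CPM, at most 441 CPM elsewhere). With that liver left out, 0 of 9 junction complex genes were called against Control-ASO, as with all livers. For the male of replicate 3, the scaling factor by the trimmed mean of M-values (TMM) was 0.775 against 0.953 to 1.12 in the other 11 livers, and the cholangiocyte markers (Krt19, Krt7, Epcam and Sox9) summed to 39.0 CPM against at most 5.86 CPM elsewhere. This male is called the outlying male, and the gene-level changes of the 9 genes against Control-ASO are given with and without it. In whole liver, fewer cells of a type and less RNA per cell cannot be told apart.

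Levels were compared between genes in TPM, the share of transcripts in a library scaled by transcript length. Eif4a3 was the highest of the 9, at 61.3 ± 8.77 TPM (SD, n = 12), and exceeded 81.8% of tested genes. Sap18, a partner of the SIN3 deacetylase complex as well as of the junction complex, followed at 54.9 ± 9.98 TPM, and Rbm8a, the Y14 protein that pairs with MAGOH, at 30.6 ± 4.45 TPM. Acin1 (29.5 ± 3.89 TPM), Magoh (24.9 ± 3.69 TPM) and Rnps1 (17.7 ± 4.90 TPM) lay in the middle. Pnn was at 7.16 ± 0.822 TPM, Casc3 at 6.28 ± 1.21 TPM and Magohb at 5.35 ± 2.32 TPM. Neighbours in this order overlapped over the 12 livers, with the exception of Rnps1 and Pnn. Rbm8a exceeded Acin1 in 7 of 12 livers and Eif4a3 exceeded Sap18 in 10 of 12. The genes of a single complex therefore spanned 61.3 to 5.35 TPM on average.

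The order was different when only transcripts annotated as protein coding were counted. For Rbm8a only 20.2 ± 3.12% of the TPM lay on protein-coding transcripts, since Rbm8a-204, a short transcript with a retained intron, held 21.5 TPM on average. The protein-coding share was 48.0 ± 3.17% for Eif4a3, 54.1 ± 5.24% for Acin1, 55.1 ± 8.11% for Casc3 and 77.5 ± 11.2% for Magoh. It was 96.2 ± 2.76% for Sap18 and 100% for Rnps1 and Pnn, of which the files hold only coding transcripts. By this measure Sap18 led with 52.7 ± 8.78 TPM, before Eif4a3 with 29.4 ± 4.89 TPM, and Rbm8a fell among the lowest with 6.10 ± 0.721 TPM. A short transcript needs few reads for a high TPM, and as a share of counts the coding part of Rbm8a was 63.3 ± 3.90%. The lead of Sap18 also rested on a short transcript, Sap18-206 of 521 bases, with 43.4 TPM from 216 estimated counts on average. Sap18-204, of 3467 bases, held 6.53 TPM from 329 counts.

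**Figure D1:**
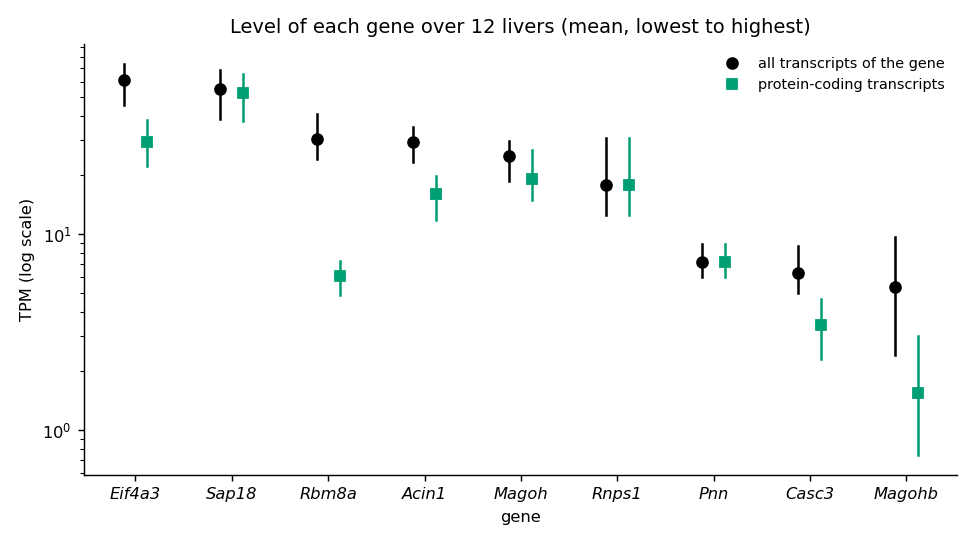
Level of the 9 genes in TPM on a log axis, with the mean (symbol) and the range from the lowest to the highest of 12 livers (line), for all transcripts of a gene and for its protein-coding transcripts. As a ratio, Rbm8a had a wide gap, from 30.6 to 6.10 TPM, and in TPM that of Eif4a3 was wider, from 61.3 to 29.4 TPM.

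The target of the treatment was measured first. Upf3b was at 10.4, 9.37, 13.5 and 10.9 CPM in DPBS livers, at 8.60, 9.55, 7.93 and 11.995 CPM in Control-ASO livers and at 1.58, 0.650, 0.996 and 0.674 CPM in Upf3b-ASO livers (replicates 1 to 4). All treated livers lay below all others. Upf3b was lower than in Control-ASO livers by a log2 fold change of -3.30 ± 0.27 (SE, adjusted p from edgeR = 7.4e-05).

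With Upf3b depleted, no component of the junction complex was called changed at the gene level. Against Control-ASO, 0 of 9 genes passed an adjusted p of 0.05 in the edgeR quasi-likelihood test, where 10.3% of all tested genes did, and 0 of 9 were below 0.05 before adjustment, where 28.0% of all genes were. Against DPBS the counts were also 0 of 9 on both measures, beside 8.93% and 23.2% of all genes. Whether 0 of 9 differs from these shares was not tested. In fits without the outlying male 1 of 9, Rnps1, was called against each group, beside 24.5% and 28.7% of all genes. A fit of the Upf3b-ASO and DPBS livers alone also called Rnps1, beside 28.0%. In CPM, Upf3b-ASO livers failed to overlap the Control-ASO livers for 0 of 9 genes, beside 15.5% of all genes, and the DPBS livers for 1 of 9, Rnps1, beside 22.5%. The 2 comparisons share the Upf3b-ASO livers. The median log2 fold change of the 9 genes was -0.06 against Control-ASO, beside -0.02 over all genes, and 2 of 9 were higher. The median without the outlying male was 0.11, beside 0.01 over all genes, and 8 of 9 were higher, so that this liver set the sign. Against DPBS the median was 0.05, beside 0.00 over all genes, and 6 of 9 were higher with and without that male in the fit. The scrambled oligonucleotide against DPBS also left 0 of 9 called, where 0.0113% of all genes were called. In that comparison 5 of 9 genes were higher in Control-ASO livers with all livers and 0 of 9 without the outlying male, where the median moved from 0.06 to -0.08.

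In the core, Eif4a3 was at 37.4, 37.2, 31.7 and 36.5 CPM in DPBS livers, at 33.3, 35.3, 50.9 and 35.7 CPM in Control-ASO livers and at 30.5, 35.0, 30.98 and 33.2 CPM in Upf3b-ASO livers. The treated livers lay within or just below the range of both reference groups, and the high value was that of the Control-ASO male of replicate 3. Its log2 fold change against Control-ASO, -0.25 ± 0.13 (SE; edgeR adjusted p = 0.24), was the largest in size of the 9. The 95% interval of this change ran from -31.5% to 2.73%. Without the outlying male it was -0.09 ± 0.08, and against DPBS it was -0.14 ± 0.13.

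Magoh, the partner of RBM8A, was at 10.4, 9.73, 8.77 and 9.91 CPM in DPBS livers, at 9.78, 8.54, 13.3 and 9.86 CPM in Control-ASO livers and at 9.32, 11.1, 10.7 and 9.53 CPM in Upf3b-ASO livers. Rbm8a was at 20.6, 22.1, 22.02 and 21.4 CPM, at 18.6, 20.4, 26.0 and 21.5 CPM and at 17.9, 22.1, 22.5 and 20.3 CPM in the same order. For both genes the 3 groups overlapped. The 95% interval of the change against Control-ASO was -20.4% to 21.4% for Magoh and -17.8% to 12.6% for Rbm8a. Without the outlying male the log2 fold change turned from -0.02 to 0.12 ± 0.10 for Magoh and from -0.06 to 0.03 ± 0.09 for Rbm8a, and neither was called.

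Magohb, the paralog of Magoh, was at 1.72, 2.16, 0.889 and 1.801 CPM in DPBS livers, at 1.26, 1.19, 2.67 and 1.25 CPM in Control-ASO livers and at 2.58, 2.33, 1.27 and 1.32 CPM in Upf3b-ASO livers. The groups overlapped, and the treated females lay above the treated males. Against Control-ASO the log2 value was 0.21 ± 0.38 with all livers and 0.66 ± 0.30 without the outlying male (edgeR adjusted p = 0.14). It was 0.18 ± 0.37 against DPBS.

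Casc3, which stabilizes the core in the cytoplasm, was at 10.4, 12.4, 13.4 and 10.5 CPM in DPBS livers, at 10.3, 10.1, 21.6 and 8.60 CPM in Control-ASO livers and at 13.3, 11.7, 11.2 and 13.2 CPM in Upf3b-ASO livers. The treated livers overlapped the livers of both reference groups. Set against Control-ASO, its log2 fold change was -0.01 ± 0.25 and, without the outlying male, 0.36 ± 0.13 (edgeR adjusted p = 0.057). Against DPBS it was 0.08 ± 0.25. The estimate moved with that liver, and Casc3 was called neither with it nor without it.

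At the rim of the complex, Rnps1 had the clearest pattern of the 9. RNPS1 is an activator of splicing that also takes part in NMD when tethered to RNA. Rnps1 was at 20.6, 21.5, 19.9 and 20.2 CPM in DPBS livers, at 20.01, 21.5, 56.7 and 19.4 CPM in Control-ASO livers and at 26.5, 26.98, 24.05 and 25.4 CPM in Upf3b-ASO livers. All 4 treated livers lay above all 4 DPBS livers and above 3 of 4 Control-ASO livers, and the fourth of these, the outlying male, was far above every treated liver. Over all tested genes, 6.58% had the treated livers above these same 7 livers. With all livers in the fit the log2 fold change was -0.15 ± 0.30 against Control-ASO (edgeR adjusted p = 0.78) and 0.33 ± 0.30 against DPBS (adjusted p = 0.57).

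Without that male, the difference of Rnps1 was called against both groups. It was 0.36 ± 0.06 against Control-ASO (SE; edgeR adjusted p = 0.0023), a level higher by 28.6% with a 95% interval of 16.8% to 41.6%. Against DPBS it was 0.33 ± 0.06 (adjusted p = 0.0019), higher by 25.8% with an interval of 15.2% to 37.3%. The fit without that male against DPBS was chosen after seeing the data, and the liver left out held the highest Rnps1 value. A fit of the Upf3b-ASO and DPBS livers alone, which involves no Control-ASO liver, gave the same value against DPBS (adjusted p = 0.0050). Calls were common in these fits, since 24.5%, 28.7% and 28.0% of all genes were called in them, and 1 of 9 is below each share. DESeq2 without that male gave 0.36 ± 0.09 (adjusted p = 0.0010) and 0.33 ± 0.08 (adjusted p = 7.8e-04), and limma on log2(TPM + 1) gave 0.31 ± 0.08 (adjusted p = 0.044) and 0.27 ± 0.08 (adjusted p = 0.044). The exact permutation test of the CPM values against DPBS, two-sided, gave p = 0.0286, the smallest that 4 against 4 allow, and 10.4% of all genes had all Upf3b-ASO livers above all DPBS livers. On the TPM scale the groups overlapped, with 17.4, 17.1, 12.5 and 14.3 TPM in DPBS livers and 20.2, 21.8, 16.4 and 15.96 TPM in Upf3b-ASO livers.

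Pnn, Acin1 and Sap18, which share assemblies with RNPS1, did not show that pattern. Pnn was at 19.4, 18.6, 24.1 and 23.0 CPM in DPBS livers, at 20.2, 19.1, 24.002 and 20.97 CPM in Control-ASO livers and at 24.3, 20.8, 20.5 and 22.05 CPM in Upf3b-ASO livers. Acin1 ranged from 43.9 to 51.1 CPM, from 44.8 to 57.9 CPM and from 41.8 to 50.9 CPM, and Sap18 from 30.3 to 36.0 CPM, from 28.6 to 45.3 CPM and from 31.9 to 35.9 CPM in the same order. All 3 overlapped between the groups. The 95% intervals against Control-ASO were -10.5% to 21.99% for Pnn, -18.5% to 13.4% for Acin1 and -21.6% to 18.1% for Sap18. Without the outlying male the log2 fold changes against Control-ASO were 0.11 ± 0.10 for Pnn, 0.05 ± 0.08 for Acin1 and 0.10 ± 0.09 for Sap18, where the last 2 had been -0.06 each, and none was called. Whether Rnps1 differed from its partners in response was not tested.

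**Figure D2:**
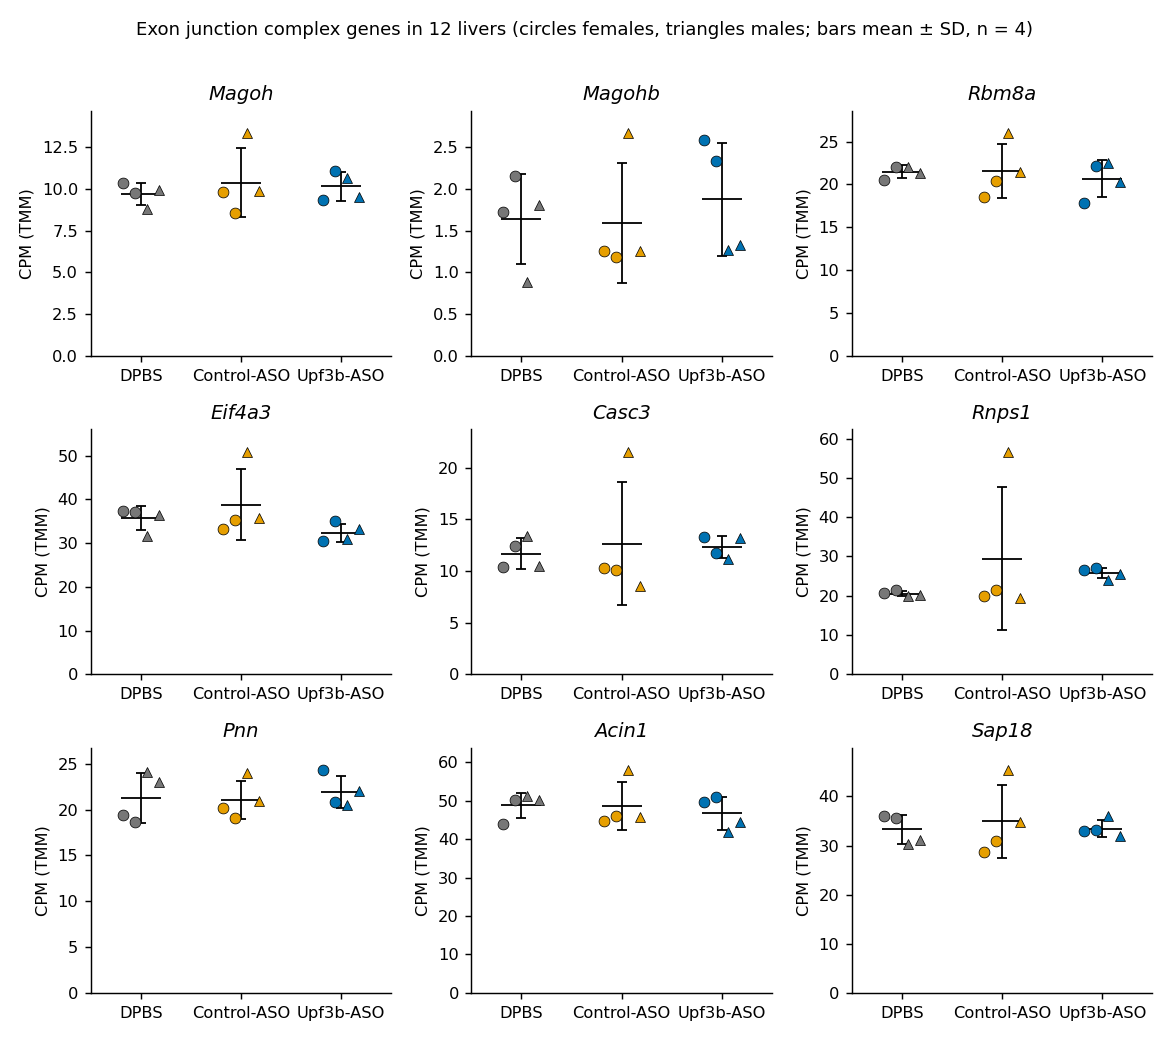
CPM scaled by TMM of the 9 genes in each liver, by group, with the mean and SD of 4 livers (circles, females; triangles, males). Rnps1 was at 24.05 to 26.98 CPM in Upf3b-ASO livers and at 19.9 to 21.5 CPM in DPBS livers, and the Control-ASO male of replicate 3 was the highest liver for 8 of 9 genes.

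**Figure D3:**
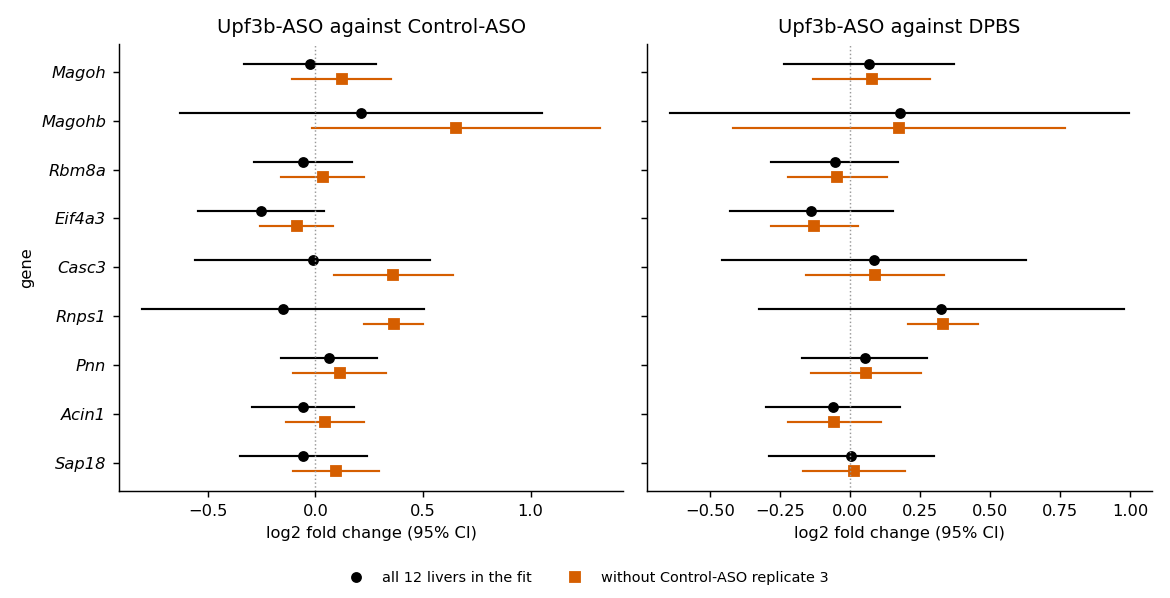
Log2 fold changes of the 9 genes with 95% confidence intervals from the edgeR fit, against Control-ASO and against DPBS, with all 12 livers and without Control-ASO replicate 3. Rnps1 moved from -0.15 to 0.36 against Control-ASO when that liver was left out.

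The outlying male was the highest of 12 livers for 8 of the 9 genes in CPM scaled by TMM, with Pnn as the exception. For Rnps1 it was at 2.79 times the mean of the other 3 Control-ASO livers, for Casc3 at 2.22 times, for Magohb at 2.16 times and for Eif4a3 at 1.46 times. How many of the genes were highest there depended on the scale, since the number was 3 of 9 in CPM without TMM (Eif4a3, Casc3 and Rnps1) and 3 of 9 in TPM (Casc3, Rnps1 and Sap18). Over all tested genes this liver was the highest for 31.1% in CPM scaled by TMM, for 14.2% in CPM without TMM and for 11.9% in TPM. Casc3 and Rnps1 were highest there on each of the 3 scales.

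Between males and females 0 of 9 genes were called, beside 10.0% of all genes. In males 8 of 9 were higher, with a median log2 fold change of 0.08, beside 0.01 over all genes. Without the outlying male 2 of 9 were higher and the median was -0.03, beside 0.00 over all genes. In that fit 0 of 9 were called, beside 1939 of 8846 genes, and Magohb was at -0.54 ± 0.24 (edgeR adjusted p = 0.14). The interaction of sex with treatment gave 0 of 9 called, beside 0.0% of all genes. For the interaction 647 of 8846 genes, 7.31%, were below 0.05 before adjustment, and 1 of 9 was, Magohb, with a log2 difference of -1.58 ± 0.63 (edgeR adjusted p = 0.59). The interaction estimates of all 9 genes were negative, that is, the change against Control-ASO was lower in males, with a median of -0.39, beside 0.01 over all genes. Control-ASO has only 2 males. Without replicate 3 the median was -0.12 and 8 of 9 were negative, the value of Magohb was -0.95 ± 0.62, and 0 of 9 were below 0.05 before adjustment, beside 6.26% of all genes.

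Magohb encodes a protein nearly identical in role to MAGOH, and the pair is shown base by base because reads of the one could in principle be counted for the other. Over the aligned coding sequence of 447 bases, 357 were identical (79.9%), and the 2 genes shared no stretch of 31 bases. The stretch of 30 coding bases with the most differences, 10, was the following, with the differing bases in capitals.
Magoh-201: agttTgaAttCcgAccTgacggTaaATtGC
Magohb-201: agttCgaGttTcgGccGgacggGaaGCtTA
Magoh was read far more often than Magohb, with 130 to 204 estimated counts per liver against 15 to 43. Other members shared stretches of 31 bases with further genes. The gene that shared most held 33.7% of the stretches of Rnps1 (Gm9825), 22.5% of those of Eif4a3 (Gm5580), 13.7% of those of Sap18 (Sap18b) and 10.4% of those of Rbm8a (Rbm8a2). Gm9825 had counts in 1 liver only, at 3.91, and Gm5580 had 0 in all 12 livers, whereas Sap18b was at 22.3 to 29.96 CPM, so that the split between Sap18 and Sap18b is uncertain. With each of these 4 genes summed with its partner the calls were unchanged.

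Magohb is also the only member whose transcripts in the files include ones of the NMD biotype. Magohb-202 skips the second exon of Magohb-201 (GRCm38, chr6:131289389-131289447, minus strand), whose length of 59 bases is not a multiple of 3, and reads into a stop codon 147 bases upstream of the last junction. The junctions of both transcripts and the end of the shortened reading frame are shown, with the bases that follow the junction in capitals in the first 2 and the stop codon in capitals in the third.
Magohb-201: agtttcggccggacgGGAAGCTTAGATATG
Magohb-202: agtttcggccggacgGCCTATGTCCACAAG
Magohb-202 end: tgtaatggaagaactgaagagaattatTGA
The shared first 15 bases are the end of the first exon, after which the reading frames part.

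The share of Magohb TPM on the 3 NMD transcripts was 66.5%, 44.5%, 69.2% and 77.5% in DPBS livers, 0%, 73.5%, 56.8% and 38.0% in Control-ASO livers and 79.6%, 53.7%, 71.2% and 55.8% in Upf3b-ASO livers. The groups overlapped. The means were 64.5 ± 14.1%, 42.1 ± 31.6% and 65.1 ± 12.4% (SD, n = 4), and the Upf3b-ASO mean exceeded that of Control-ASO by 23.0 percentage points, within the spread (exact permutation test, two-sided, p = 0.29). Without the Control-ASO female at 0%, which is also the one with the high erythroid markers, it was 8.93 points. Against DPBS the difference was 0.601 points (exact permutation p = 0.94). The groups failed to overlap for 4.00% of 1948 genes with such transcripts against Control-ASO and for 4.11% against DPBS. A mean of 28.8 estimated counts per liver for the whole gene limits this measure, and no difference was detectable at this depth.

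**Figure D4:**
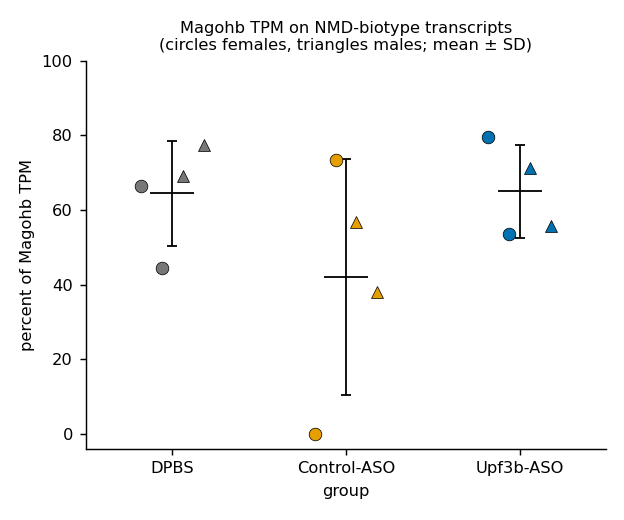
Percent of Magohb TPM on transcripts of the NMD biotype in each liver, by group, with the mean and SD of 4 livers (circles, females; triangles, males). The groups overlap, and the Control-ASO female of replicate 1 is at 0%.

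A junction complex can mark a transcript for NMD where the stop codon lies upstream of an exon junction. Of 18 named protein-coding transcripts with an annotated stop codon, 2 have it before the last junction, Casc3-204 and Casc3-201, both by 42 bases, a spacing shorter than that usually taken to trigger decay. Casc3-204 was at 165.8, 210.6, 181.5 and 107.7 estimated counts in DPBS livers, at 163.4, 148.9, 247.1 and 113.9 in Control-ASO livers and at 89.6, 181.1, 123.9 and 171.5 in Upf3b-ASO livers. The groups overlapped, and the estimate for it against Control-ASO was -0.16 ± 0.31 on the log2 scale. Casc3-201 held whole multiples of 16.9 estimated counts in all 12 livers (tolerance 0.001), 1 such step in 7 livers and at most 5, and it was therefore given no fold change.

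Single transcripts were tested in the same way, 40 of the 61 that the files hold for the 9 genes. None was called against Control-ASO or against DPBS by edgeR, where 0.576% and 0.555% of 42717 transcripts were called. Before adjustment 1 of 40 was below 0.05 against Control-ASO, beside 10.3% of all transcripts, and 0 of 40 against DPBS, beside 8.48%. The former was Eif4a3-201, the main coding transcript of the helicase, at 365.0, 339.9, 321.5 and 369.6 estimated counts in DPBS livers, 334.3, 405.7, 377.1 and 324.7 in Control-ASO livers and 252.7, 337.0, 194.1 and 250.6 in Upf3b-ASO livers. The treated livers were lower in counts but came from smaller libraries, and with depth scaled the estimate was -0.37 ± 0.14 on the log2 scale (edgeR adjusted p = 0.40). In the fit without the outlying male 0 of 40 were called, beside 1.69%, the value of Eif4a3-201 was -0.27 ± 0.13, and the 1 of 40 below 0.05 before adjustment was Rnps1-203 at 0.65 ± 0.27, beside 11.8%. Usage of transcripts within a gene was called for 0 of 39, beside 0.161% of 36030, and 1 of 39 was below 0.05 before adjustment, beside 3.16%. When the outlying male was left out, usage was called for 0 of 39, beside 0.241%, and 4 of 39 were below 0.05 before adjustment, beside 3.48%.

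Transcript values varied more between animals than gene sums did. Of 38 transcripts with a mean TPM of at least 0.5, 15 had under 1 estimated count in at least 1 liver. Rnps1-201 was at 98.0, 67.2 and 131.9 estimated counts in DPBS replicates 2 and 3 and Upf3b-ASO replicate 2 and at 0 in the other 9 livers, while the sum of Rnps1 had a coefficient of variation of 3.38% over DPBS livers. For Acin1 the sum varied by 6.79% and its named transcripts by a median of 43.8%, and for Sap18 by 8.86% and 84.2%. Rnps1-202 and Rnps1-203 had log2 fold changes of 0.15 and 0.68 against DPBS, neither called, so the data do not assign the difference of the gene to a transcript.

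**Figure D5:**
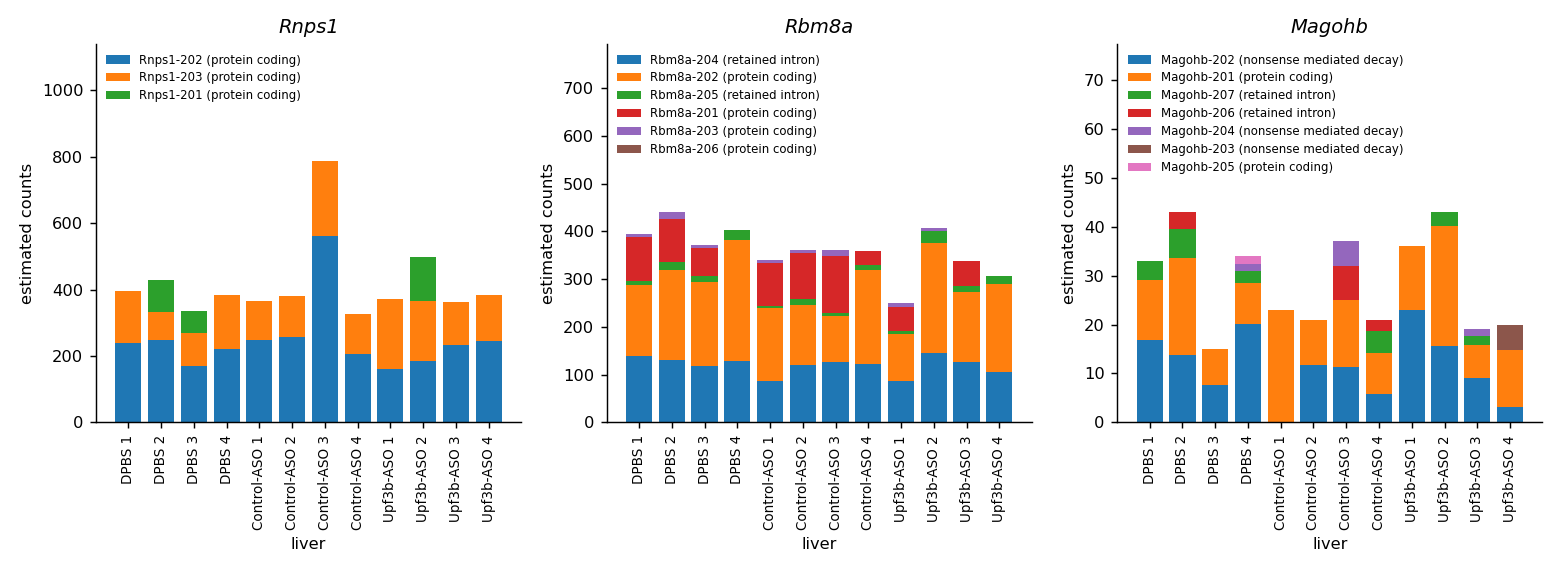
Estimated counts of the transcripts of Rnps1, Rbm8a and Magohb in each of 12 livers, stacked, with the annotated biotype of each transcript. Rnps1-201 holds counts in 3 livers, and Magohb sums to 15 to 43 counts.

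The coding share of Rbm8a, a comparison chosen after its values were seen, was 16.6% to 19.6% in Upf3b-ASO livers, below the 19.8% to 28.8% of all Control-ASO livers (the outlying male at 20.2%), and overlapped the 19.5% to 22.2% of DPBS livers. Upf3b-ASO livers were lower throughout for 1.47% of 5510 genes in the comparison with Control-ASO. For the other 6 genes with both kinds of transcript the groups overlapped in both comparisons, and over all genes they failed to overlap for 4.03% against Control-ASO and 4.61% against DPBS.

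The neighbours of the complex were read from 4 lists. Of the factors of assembly, recycling and import, 6 of 7 were tested and 0 were called against either group, beside 10.3% and 8.93% of all genes. They were Cwc22, which loads EIF4A3 on the spliceosome, Cwc27, Aqr, Pym1, which dissociates the complex from ribosome-bound RNA, Ncbp1 and Srrm1, while the import receptor gene Ipo13 was under the filter. Of the NMD factors that contact the complex, 5 of 5 were tested. Against Control-ASO 1 rose, Upf2, by 0.77 ± 0.10 on the log2 scale, and 2 fell, Upf3b and Smg6, the latter with -1.70 ± 0.12, and the same 3 were called against DPBS, so that 3 of 5 were called beside 10.3% and 8.93% of all genes. Upf3b is the target of the ASO, so its call cannot be weighed against those shares, which leaves Upf2 and Smg6. The list was chosen with earlier results of these data known, so the calls of Upf2 and Smg6 cannot be weighed against those shares either. Upf3a and Upf1 were not called. Among paralogs, Eif4a2, a translation initiation helicase related to Eif4a3, was at 313, 259, 295 and 255 CPM in DPBS livers, at 309, 362, 331 and 313 CPM in Control-ASO livers and at 361, 343, 402 and 376 CPM in Upf3b-ASO livers. It rose against DPBS, where the log2 value was 0.40 ± 0.10 (adjusted p from edgeR = 0.031), and that against Control-ASO was 0.17 ± 0.10 (adjusted p = 0.28). Control-ASO against DPBS gave 0.23 ± 0.10 for Eif4a2 (edgeR adjusted p = 0.64). Of 3 paralogs 2 were tested, with 0 called against Control-ASO and 1 against DPBS, beside 10.3% and 8.93% of all genes. The other tested paralog, Eif4a1, was called against neither.

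The export factors of the TREX complex, which associate with the junction complex on spliced RNA, had 12 of 13 genes tested and 0 called. Without the outlying male, 3 of 12 were called against Control-ASO and against DPBS, all higher in Upf3b-ASO livers, beside 24.5% and 28.7% of all genes called in either direction. They were Chtop (0.28 ± 0.06 against Control-ASO and 0.25 ± 0.06 against DPBS), Sarnp (0.33 ± 0.11 and 0.33 ± 0.10) and the helicase gene Ddx39b (0.31 ± 0.08 and 0.22 ± 0.07), named after their values were seen. Chtop was at 58.5, 60.0, 58.4 and 57.5 CPM in DPBS livers, at 58.6, 58.9, 62.2 and 56.3 CPM in Control-ASO livers and at 78.5, 68.7, 65.7 and 64.7 CPM in Upf3b-ASO livers. With the outlying male left aside, Chtop was higher in all treated livers than in all others, and so was Nxf1. Over all genes, 10.4% had all treated livers above all DPBS livers. Above DPBS and Control-ASO livers together, with the outlying male left out, it was 6.58%. Thoc1 went the other way, below all Control-ASO livers (-0.31 ± 0.13, edgeR adjusted p = 0.16 with all livers), and overlapped the DPBS livers. For 15.5% of all genes the treated livers failed to overlap all Control-ASO livers, in either direction.

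By Pearson's r of log2 CPM over the 12 livers, and with the outlying male among them, the genes most like Eif4a3 were Nmd3, an export adaptor of the large ribosomal subunit (r = 0.96), Rnf146 (0.94), Aste1 (0.94), Nup50, a nucleoporin (0.94), and Eif3g, an initiation factor subunit (0.93). The livers share 3 treatments and 2 sexes. Over the other 11 livers Nmd3 was at 0.85 and ranked 3, and the other 4 were at 0.71 to 0.76 and ranked 25 to 71, so that this order rested on the outlying male.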

How the data were processed

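The authors sequenced TruSeq libraries of total liver RNA, 1 per mouse, by Illumina sequencing, and obtained transcript abundances by Salmon 0.7.2 against Ensembl mouse cDNA (GRCm38). Bcl2fastq 2.17.1.14 is named in the submitters' processing notes. The deposited files give, per transcript, estimated counts and TPM, the latter scaled by the authors to effective length and library. Of 92468 transcripts, 98.1% were joined to genes by identifier through GENCODE M21. The members and lists were chosen with earlier results of these data known. The estimated counts of a gene's transcripts were added and rounded. Genes that reached 5 TPM in at least 4 livers, and transcripts that reached 0.5 TPM in at least 4, entered edgeR 4.0.16 (quasi-likelihood test, R 4.3.3) on TMM-scaled counts, in a single fit of 12 livers with sex as covariate. P-values were adjusted by Benjamini-Hochberg and called under 0.05. Confidence intervals are 95%. Transcript usage was tested with diffSpliceDGE of edgeR. DESeq2 1.42.0 and limma 3.58.1 served as alternatives. The tests were checked on simulated data that held no outlying liver and no sex differences, so the check does not cover the part played by the outlying male. Chosen after seeing the data were the comparison of the coding share and the fits without the outlying male for the DPBS comparison and for sex. So were the sums over the closest gene in sequence, and all fits with an added choice beside the outlying liver.

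The labels do not state litters, cages or library batches, and p-values measure the spread between these livers only. No pair of livers in a group agreed within sampling noise. Livers with the same replicate number deviated together (mean correlation 0.51), as did other livers of the same sex (0.51), and with sex removed the mean was 0.12 for females and -0.07 for males, so the numbers were not taken as pairs. Named genes are all 9 members, their transcripts with a mean TPM of at least 0.5, Upf3b, up to 8 called genes of 4 lists (assembly, recycling and import; NMD factors that contact the complex; TREX export; paralogs) and the 5 genes most correlated with Eif4a3. Some uncalled genes of these lists are also named. Target sites and sequences were read from the M21 transcripts, and the oligonucleotides from the study's supplementary table. Upf1-ASO livers were not analysed here.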

Additional observations from a re-analysis of the deposited data

Results flagged for a closer look

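In 33 groups of 4 livers examined, over the CPM of the 9 genes and of Upf3b and the share of Magohb TPM on NMD transcripts, 7 values lay far from the other 3 of their group by Dixon's test at 95%. Chance gives about 1 in 20 groups where groups are independent. These are not, since all genes of a liver share 1 scaling factor, 0.775 in the Control-ASO male of replicate 3. Of the 7, 5 belonged to the Control-ASO male of replicate 3. It was at 2.67 CPM for Magohb (others 1.19 to 1.26), at 50.9 CPM for Eif4a3 (33.3 to 35.7), at 21.6 CPM for Casc3 (8.60 to 10.3), at 56.7 CPM for Rnps1 (19.4 to 21.5) and at 57.9 CPM for Acin1 (44.8 to 46.1). In unscaled estimated counts Acin1 was at 804 in this male, beside 767 to 819 in the other 3 Control-ASO livers. In the DPBS group, the male of replicate 3 was low for Eif4a3, at 31.7 CPM (36.5 to 37.4), and the female of replicate 1 low for Acin1, at 43.9 CPM (50.1 to 51.1).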

How the results depend on the processing

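The count of called members was 0 in all 5 gene comparisons and stayed 0 under most alternatives. It became 1 of 9, with Rnps1 as the gene, against Control-ASO without the male of replicate 3, alone or with the sum over the closest gene in sequence, the replicate block, DESeq2 or limma on log2(TPM + 1), and against DPBS in the fit of 2 groups and in the fits without that male. Leaving out other livers kept it at 0. Rnps1 against Control-ASO reversed from -0.15 to 0.36 without that male, to 0.36 when also summed, 0.37 with the replicate block, 0.36 with DESeq2 and 0.31 with limma. When 1 liver at a time was left out it ranged from -0.31 to 0.36. The replicate block with all livers left 0 of 9 called in each treatment comparison. Over all genes it called 699 against Control-ASO and 606 against DPBS, and 0 for Control-ASO against DPBS. In other fits, the 910 called against Control-ASO became 2168 without that male and 363 in the fit of 2 groups, and the 790 against DPBS became 2478 in the fit of 2 groups and 2540 without that male. The share of Magohb TPM on NMD transcripts against DPBS reversed from 0.601 to -0.139 points on counts and ranged from -6.04 to 4.96 when a liver was left out, with values of -4.24 and -1.46 among them. Pnn moved to 8.07 TPM when TPM was rescaled over joined transcripts. Depth limits Magohb, at 15 to 43 counts per liver, and single transcripts.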
